A study of Drosophila melanogaster with 8 samples.

Results

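This account is about 1452 genomic regions at which Deadpan (Dpn) had a peak in a pan-neuroblast (NB) binding list, had none in a medulla NB list, and lay at a protein-coding gene. The regions were chosen by the measured peaks themselves. A pan-NB peak on arm 2L, 2R, 3L, 3R or X or on chromosome 4 was taken when it shared 0 bp with every medulla NB peak and had a protein-coding gene no more than 1 kb away. Of 4282 pan-NB peaks on these arms, 1924 (44.9%) overlapped no medulla NB peak. Of the 3327 pan-NB peaks within 1 kb of a protein-coding gene, 1452 (43.6%) met the whole rule, and the other 1875 overlapped a medulla NB peak and are called shared. The remaining 472 unshared pan-NB peaks lay farther from any protein-coding gene.

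All samples were brains of the third larval instar of Drosophila, and DamID was measured in 2 replicates of each of 4 groups. For the pan-NB list, Dam-Dpn was compared with a Dam-only control, both under wor-GAL4 and with GAL80ts, in 30 brains per replicate. This driver is active in all larval NBs, and the Dam-Dpn fusion came from a transgene and not from the dpn locus. For the medulla NB list, NanoDam in Dpn-GFP animals was compared with NanoDam in the w1118 background, which has no GFP, under eyR16F10-GAL4 (ey-GAL4 in the sample labels) and GAL80ts, in 40 brains per replicate. The tagged Dpn was under its own control there, and the study describes that driver as active in medulla neurons and in few superficial NBs. Larvae grew at 18°C, and the shift to 29°C started Dam expression. The peak lists were made from averaged replicates, so no value here has a replicate error, the depth behind each peak is unknown, and no comparison is a test. The method and the cells differ together between the lists and cannot be told apart. Since whole brains were used, fewer bound cells and weaker binding in each cell cannot be told apart either. A missing medulla NB peak says only that none passed the threshold, not that Dpn was absent.

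Dpn is a basic helix-loop-helix repressor of the Hes family that acts with Notch signalling to keep NBs in a self-renewing state. NBs of the ventral nerve cord and central brain arise in the embryo and carry positional identities given by Hox, segment polarity and columnar genes. Medulla NBs arise later, from the neuroepithelium of the optic lobe, and pass through their own series of temporal transcription factors (tTFs). DamID brings the bacterial methylase Dam to a DNA-bound protein, by fusion or through a nanobody, and reads the binding from adenine methylation of nearby GATC sites.

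The pan-NB only regions held mostly peaks of low score. The score is the value that the authors' peak caller gave each peak, without a stated scale, and is used only within the pan-NB list. Its median was 2.93 in the 1452 pan-NB only peaks, with quartiles of 2.29 and 4.09, and 4.59 in the 1875 shared peaks, with quartiles of 3.43 and 5.95. The highest score was 8.64 among pan-NB only peaks and 9.89 among shared peaks. An FDR below 0.001 was reached by 63.6% of pan-NB only peaks and by 87.0% of shared peaks. The 3327 peaks at genes were split into 4 groups of nearly equal size by score. From the lowest group (scores up to 2.69) to the highest (scores from 5.34), the pan-NB only share was 71.8%, 52.5%, 32.4% and 17.6%. Only 7 of the 100 highest-ranked peaks of the whole pan-NB list, and 108 of the 1000 highest-ranked, belonged to the pan-NB only peaks at genes. Shared peaks at genes made up 54 of these 100 and 562 of these 1000. Since the same profile gave both the scores and the choice of regions, these values describe the regions and support nothing beyond that.

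**Figure D1:**
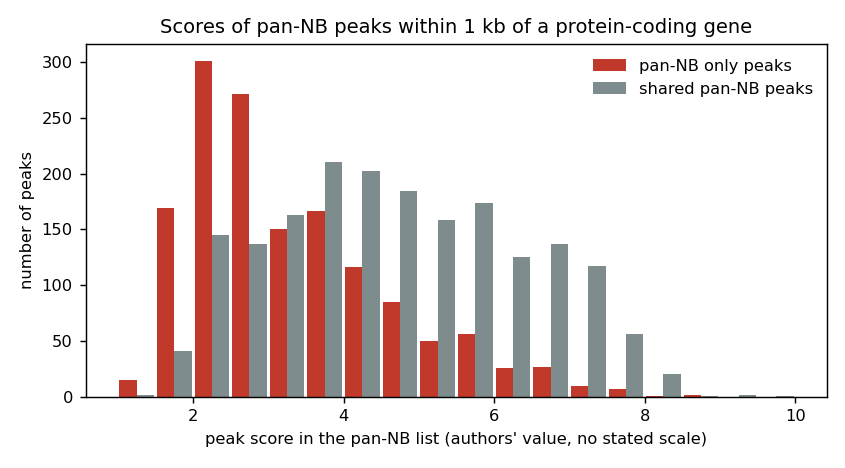
Number of pan-NB peaks within 1 kb of a protein-coding gene (vertical axis) by peak score in bins of 0.5 (horizontal axis), with pan-NB only peaks in red and shared peaks in grey. The red bars are tallest between 2 and 2.5, with 301 peaks, and the grey bars between 3.5 and 4, with 210 peaks.

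Pan-NB only peaks were somewhat narrower than shared ones, with a median width of 1323.5 bp against 1521 bp, and together covered 2269736 bp against 3215694 bp. Their place relative to genes was close to that of shared peaks. A protein-coding gene was overlapped by 94.0% of pan-NB only peaks and 93.5% of shared peaks. An end of a gene, either start or stop since the gene table used here holds no strand, lay under 39.0% of pan-NB only peaks and 38.5% of shared peaks. Of both kinds, 55.0% lay wholly inside a gene and away from any gene end. A whole gene was covered by 56 pan-NB only peaks and 49 shared peaks. The number of genes within 1 kb was 1 for 846 of the pan-NB only peaks and at least 2 for the other 606, so that counts of genes below share peaks.

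By chromosome arm, the pan-NB only share of peaks at genes was 47.4% on 3R, 47.3% on 2L, 43.5% on 2R, 43.0% on 3L and 38.2% on X. On chromosome 4 only 11 of 41 peaks (26.8%) were pan-NB only. Median scores of the pan-NB only peaks ran from 2.84 on 3L to 3.05 on 2L on the 5 large arms.

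Few of the regions lay next to a medulla NB peak. The distance to the nearest medulla NB peak had a median of 8451.5 bp, with quartiles of 2703.25 and 21810.75 bp. It was 10 kb or more for 672 of the 1452 peaks (46.3%) and under 1 kb for 153 (10.5%). Peaks under 1 kb from a medulla NB peak had a median score of 3.79, and those 10 kb or more away had 2.84. The rule has 2 edges, and the values on both sides of each are given as a description. At CG13321, on 2R from 12954137 to 12954610, a pan-NB only peak with a score of 5.74 lay 4 bp from a medulla NB peak. At Nhe1 and Sam-S, on 2L from 106388 to 107857, the gap was 5 bp. On the other side, the shared peaks at CG46448, CG1835 and RunxB overlapped a medulla NB peak by 1 bp each. At the edge set by genes, the region farthest from its gene lay 973 bp from trbl, which encodes a Tribbles pseudokinase, and the nearest peak left out lay 1005 bp from CG34459.

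**Figure D2:**
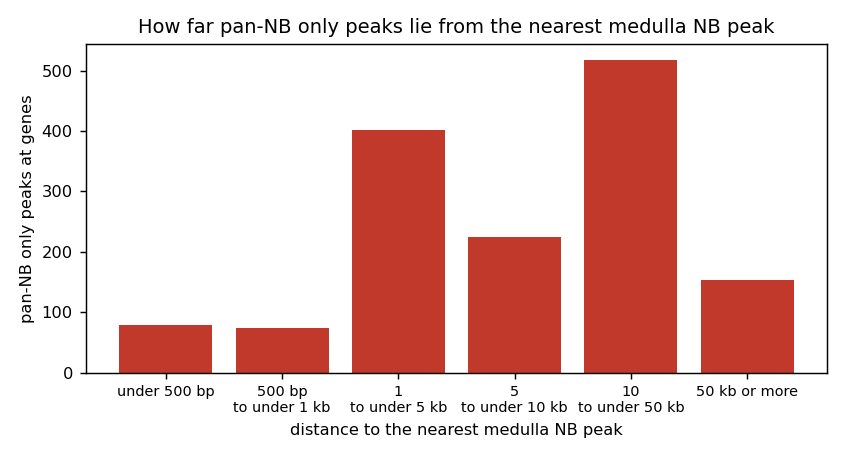
Number of pan-NB only peaks at genes (vertical axis) by distance to the nearest medulla NB peak (horizontal axis, bins of unequal width). The tallest bar is that from 10 to under 50 kb, with 518 peaks, and 79 peaks lie under 500 bp from a medulla NB peak.

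The regions lay within 1 kb of 1900 of 13922 protein-coding genes (13.6%), and of 3713 genes with any pan-NB peak 51.2% had a pan-NB only one. A single pan-NB only peak was found at 1630 of the 1900 genes, 2 at 203 genes and 3 or more at 67. Of the 1900 genes, 1347 (70.9%) had no medulla NB peak within 1 kb. Of all 3713 genes with a pan-NB peak, 1419 (38.2%) had none, and these include the same 1347. The choice of regions itself sets most of this difference, so the 2 shares only describe the regions. At 1333 genes pan-NB only peaks were the sole Dpn peaks in either list, and at 14 more a shared pan-NB peak reached the gene while the medulla NB peak under it did not. The other 553 genes (29.1%) had a medulla NB peak too. Over all 1900 genes, 432 had a shared pan-NB peak beside a pan-NB only one, the 14 above among them. At the rest of the 553, no pan-NB peak at the gene overlapped a medulla NB peak. The 553 genes were long, with a median length of 11431 bp. That of genes with pan-NB only peaks alone was 2919 bp, and that of all protein-coding genes 2163 bp.

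At the Hox genes nearly all pan-NB peaks overlapped no medulla NB peak. Hox genes encode homeodomain proteins that give segments, and the NBs in them, their identity along the body axis. All 8 had a pan-NB peak and all 8 had a pan-NB only peak, against 51.2% of all genes with a pan-NB peak. Of their 32 pan-NB peaks, 30 (93.8%) were pan-NB only, where 43.6% of all pan-NB peaks at protein-coding genes were. The 2 shared peaks lay at Antp and abd-A, and 6 of the 8 Hox genes had no medulla NB peak. That count is near the share of all genes with a pan-NB only peak, of which 70.9% had none. Scores of the 30 peaks ran from 1.74 to 6.61 with a median of 3.14, so they were not strong peaks as a group. From the lowest to the highest of the 4 score groups, 11 of 11, 10 of 10, 4 of 5 and 5 of 6 Hox peaks were pan-NB only. Without Antp, 17 of the 18 Hox peaks (94.4%) were pan-NB only. With the 50% of the pan-NB list that scored higher, the share was 81.8% (of 11 peaks), against 24.4% of all peaks at genes in that setting.

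Antp, the Hox gene of thoracic segments, had 13 pan-NB only peaks, 1 shared peak and 1 medulla NB peak within 1 kb. The 13 peaks covered 31676 bp along a gene of 102976 bp on 3R. The highest-scoring ran from 6952439 to 6954115 and scored 6.61 (rank 518), and the next ran from 6930285 to 6931021 with a score of 6.08. The lowest had a score of 1.79. Distances to the nearest medulla NB peak ranged from 787 to 74791 bp, so the pan-NB only peaks extended far to one side of the single shared site. CG46458, an uncharacterised gene at the same place, had 7 pan-NB only peaks, and all 7 are also among the 13 of Antp.

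Ubx, which sets the identity of posterior thoracic and anterior abdominal segments, had 8 pan-NB peaks on 3R, all of them pan-NB only, and no medulla NB peak. They covered 16611 bp, and the nearest medulla NB peak lay between 26855 and 87237 bp away. The scores at Ubx were 2.54, 3.12, 5.66, 2.22, 2.19, 4.97, 5.44 and 1.91 in order along the arm, and the peak with 5.66 ran from 16677975 to 16680012. Its neighbours had fewer peaks. abd-A had 1 pan-NB only peak, from 16819092 to 16819781 with a score of 4.68, beside 1 shared peak, and Abd-B had 1 pan-NB only peak, from 16932735 to 16935612 with a score of 3.55. In the Antennapedia complex, Scr had 3 pan-NB only peaks with scores of 3.72, 1.74 and 2.88, and pb had 2 with scores of 2.09 and 2.89. Dfd had 1 with a score of 2.21 and lab had 1 with a score of 3.56. None of Scr, pb, Dfd and lab, which act in head and anterior thoracic segments, had a medulla NB peak within 1 kb.

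**Figure D3:**
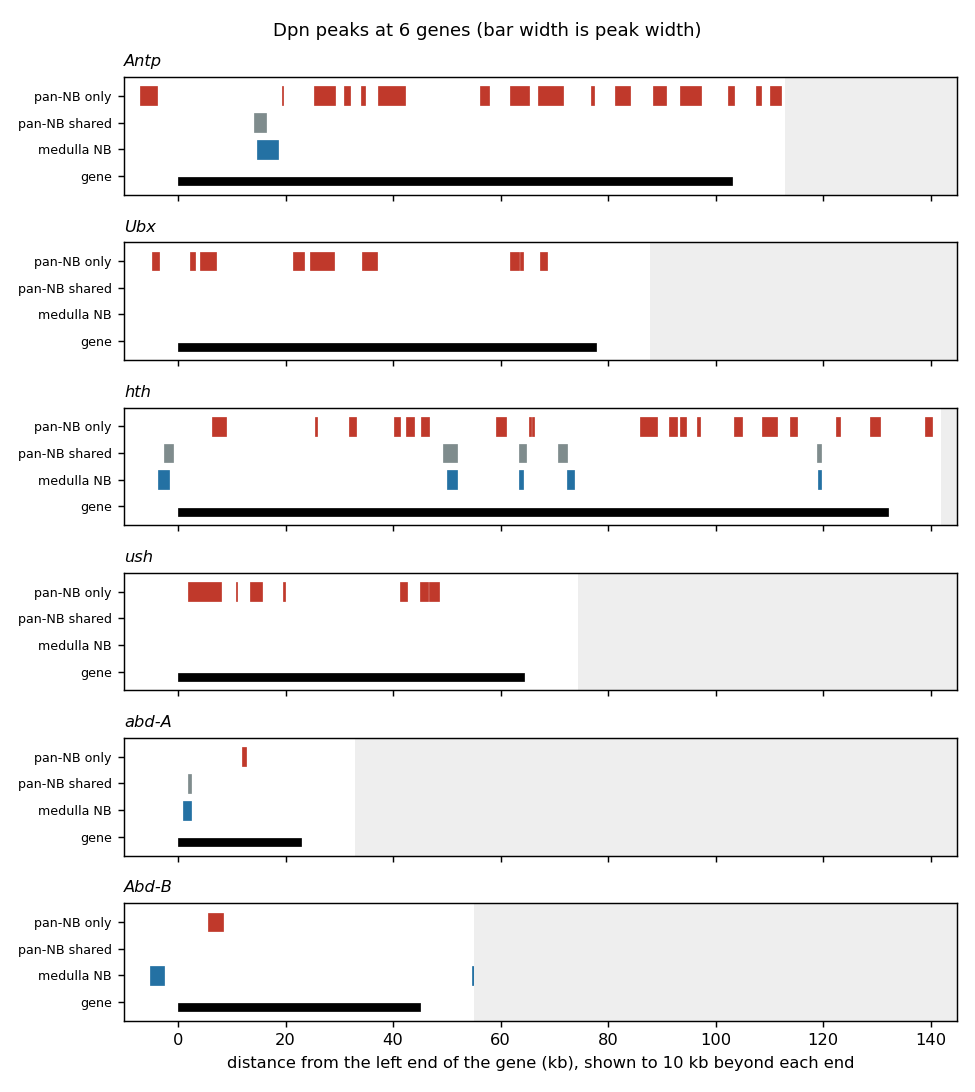
Dpn peaks along Antp, Ubx, hth, ush, abd-A and Abd-B by distance from the left end of each gene in kb (horizontal axis), with pan-NB only peaks in red, shared pan-NB peaks in grey, medulla NB peaks in blue and the gene in black. Bars are as wide as the peaks and the grey area lies more than 10 kb beyond the gene. Ubx and ush hold red peaks alone, 8 and 7 of them, while Antp and abd-A hold 1 shared peak each.

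Most pan-NB only peaks stood in short runs, and a few loci held long ones. A run is a series of neighbouring pan-NB peaks, those far from genes included, with none that overlaps a medulla NB peak. There were 901 runs with a median of 1 peak, 476 of them of a single peak, and 20 of at least 8 peaks. The longest had 25 peaks and spanned 172338 bp at Antp, with 15 of the pan-NB only peaks at genes and 2 medulla NB peaks between them. The next had 20 peaks over 224945 bp around tsh, a zinc finger gene of the trunk, with 6 peaks at genes and 1 medulla NB peak between them. A run of 18 peaks, with 5 at genes, spanned 169357 bp around the T-box genes H15 and mid. Another of 18, with 6 at genes, spanned 133108 bp around the homeobox genes E5 and ems. Both stretches hold other genes too, and neither held a medulla NB peak. The run at Ubx had 16 peaks over 162370 bp, with 12 at genes, also without a medulla NB peak. Shorter runs lay around en (12 peaks over 56893 bp, 1 at a gene) and ush (8 peaks over 86389 bp, 8 at genes). Another lay around wg (8 peaks over 110016 bp, 4 at genes). Again no medulla NB peak lay inside these runs. Other runs crossed gene-dense stretches, such as 13 peaks over 297503 bp on 2L with 9 medulla NB peaks between them, or wide stretches with few peaks, such as 14 peaks over 4119892 bp on 3R that included Myo81F. The length of a run alone therefore does not tell of a single bound locus.

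hth held more pan-NB only peaks than any other gene. It encodes a TALE-class homeodomain protein that works with Exd and Hox proteins and is expressed in the youngest medulla NBs. Its 18 pan-NB only peaks on 3R covered 25685 bp along a gene of 132008 bp, beside 5 shared pan-NB peaks and 4 medulla NB peaks. Their scores had a median of 4.62, above the 2.93 of all the regions, with a highest of 7.54 and a lowest of 2.03. The highest-scoring of the 18 ran from 10598885 to 10600449 and had rank 134. The next 2 ran from 10629987 to 10630798 with a score of 6.88 and from 10573350 to 10573862 with 6.77. The 5 shared peaks scored from 4.79 to 8.3, and those with 8.3 and 8.2 exceeded every pan-NB only peak at hth. Distances from these 18 peaks to the nearest medulla NB peak were between 1215 and 24315 bp.

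Among the other tTF genes pan-NB only peaks were rare. The early genes SoxN and dmrt99B had none, so that the 18 pan-NB only peaks of 26 at early tTF genes (69.2%) were those of hth alone. The 10 mid tTF genes had 2 of 28 (7.14%), 1 at scro with a score of 3.76 and 1 at B-H2 with a score of 2.4. All pan-NB peaks at erm, opa, ey, hbn, slp1, slp2, D and B-H1 were shared. Of the late genes tll had none, and gcm, the glial switch gene, had 1 of its 3 peaks pan-NB only, with a score of 6.11 and rank 740. With sharing defined as at least 50% of a pan-NB peak covered, 28.6% of the mid tTF peaks were pan-NB only, against 54.6% of all. Among the higher-scoring 50% of the pan-NB list 0 of 22 were, against 24.4% of all peaks at genes in that setting.

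The GATA factor list with ush resembled the Hox list in its share. Of its 14 pan-NB peaks, 13 (92.9%) were pan-NB only, all at 3 of its 6 genes. ush, which encodes a Friend-of-GATA zinc finger cofactor, had 7 pan-NB only peaks covering 13789 bp on 2L and neither a shared nor a medulla NB peak. Scores at ush ran from 1.77 to 6.26, and the peak with the highest ran from 521248 to 522667. grn, a GATA factor gene with a role in motor neurons, had 5 pan-NB only peaks, 1 shared and 1 medulla NB peak, with a top score of 5.85. GATAd had 1, with a score of 2.7, beside a medulla NB peak 1914 bp away.

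Only 18 genes had at least 3 pan-NB only peaks and no other Dpn peak in either list. Ubx and ush led them, followed by HGTX with 5 peaks and run with 4. HGTX, the homologue of the Nkx6 homeobox genes and known in motor neuron fate, had scores from 2.79 to 4.99 and 9400 bp covered. run, the founding Runt-domain gene, had scores of 6.07, 6.17, 4.17 and 2.84 along the X chromosome. Others in this group were Scr and elB, a zinc finger gene whose 3 peaks had scores of at most 2.34, and CG42342 with 3 peaks of at most 4.98. CG46315 and CG6424 have the same length in the gene table and hold the same 4 peaks, the highest with a score of 7.17, so they count as 1 locus.

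Of the 12 genes with the most pan-NB only peaks, 10 also had medulla NB peaks. heph, which encodes the polypyrimidine tract-binding protein, had 8 pan-NB only and 4 shared peaks. lov, a BTB-domain gene, had 7 pan-NB only and 4 shared peaks, with 6 in the medulla NB list. svp, an orphan nuclear receptor gene that acts in temporal switches of NBs, had 6 pan-NB only and 4 shared peaks. Eip75B, an ecdysone-induced nuclear receptor gene, had 6 of each. inv, a homeobox gene next to en, had 6 pan-NB only and 1 shared peak, and CG9380 had 6 and 2. CG32816 had 6 pan-NB only peaks, but 9 shared and 11 medulla NB peaks. At these genes the pan-NB only peaks were part of a larger set, unlike those at Ubx and ush.

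**Figure D4:**
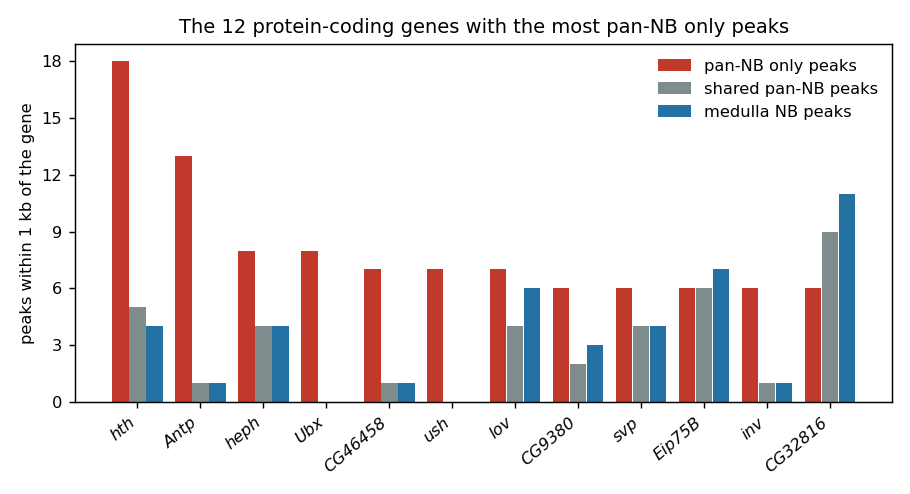
Peaks within 1 kb (vertical axis) of the 12 protein-coding genes with the most pan-NB only peaks, with pan-NB only peaks in red, shared pan-NB peaks in grey and medulla NB peaks in blue. hth has 18 red peaks and Antp 13, and Ubx and ush have no grey or blue bar.

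Although most scores were low, some pan-NB only peaks ranked near the top of the list. The highest lay at lov on 2R, from 25101173 to 25102494, scored 8.64 (rank 9) and was 8813 bp from a medulla NB peak. The next lay at babos on 2R, from 22400677 to 22401276, with a score of 8.63 and rank 10. Diap1, the inhibitor of apoptosis, had a peak with a score of 8.02 and rank 42 on 3L from 16049280 to 16050136, beside a shared peak. A second peak at lov followed with 7.9. Peaks with a score of 7.78 lay at l(2)41Ab and on insb. The peak on insb, also within 1 kb of qkr54B and CG43110, was only 193 bp from a medulla NB peak. Peaks at shot, a spectraplakin gene (7.73), H15 (7.58), hth (7.54) and kn, a COE-family transcription factor gene (7.5), completed the first 10. The peak at H15, on 2L from 5409917 to 5410935, was the sole Dpn peak within 1 kb of that gene and lay 87495 bp from a medulla NB peak. Further down the list, fru, a BTB zinc finger gene of sexual differentiation, had a pan-NB only peak on 3R from 18478568 to 18480316 that scored 7.02 and lay 27515 bp from a medulla NB peak. tai, which encodes a coactivator of the ecdysone receptor, had one on 2L from 9222783 to 9224217 that scored 6.89 and lay 50399 bp away.

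Segment polarity and columnar genes, which lay out the positions of NBs in the embryonic trunk, differed from one another in their pan-NB only peaks. The segment polarity list had 18 of 38 pan-NB peaks pan-NB only (47.4%), near the 43.6% of all, and 10 of its 17 bound genes (51.2% over all bound genes) had one. inv had 6 pan-NB only peaks and 1 shared peak, wg had 2 pan-NB only peaks, and en, hh, smo, ptc, H15 and mid had 1 each without a shared one. gsb-n had 3 pan-NB only peaks and 1 shared, and gsb had 1 of each, while Wnt4, fz, fz2, nkd, ci, pan and arm had none. At wg, the Wnt ligand gene, 2 pan-NB only peaks had scores of up to 3.96, and at en the single peak had a score of 6.59. Of the 20 peaks at columnar and head gap genes 11 (55%) were pan-NB only. oc had 5 of its 8 peaks pan-NB only, vnd 4 of 6 and ind 1 of 3, ems had a single pan-NB only peak, and btd had none of its 2.

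Genes of NB identity had a lower pan-NB only share than all peaks at genes. These genes act in the self-renewal or unequal division of NBs or, as nerfin-1 does, in keeping neurons differentiated. Of the 45 pan-NB peaks at this list, 12 (26.7%, against 43.6% of all) were pan-NB only. Both peaks at klu and 2 of 3 at insc were, while wor, mira, brat, numb, esg, sna and nerfin-1 had none. stau, which encodes an RNA-binding protein that carries prospero mRNA in dividing NBs, was the exception without any medulla NB peak. It had 2 pan-NB only peaks on 2R, from 18122701 to 18123700 with a score of 7.34 and from 18123788 to 18124317 with 6.95. grh had 3 of its 9 peaks pan-NB only, and the highest, with a score of 7.35, lay 98 bp from a medulla NB peak. At dpn itself 1 of 2 peaks was pan-NB only, with a score of 5.72, and ase had 1 of 3, with 5.76. Among cell polarity genes 11 of 35 peaks (31.4%) were pan-NB only, also below 43.6%, and 8 genes had such a peak. Of these 8 genes, 4 had no medulla NB peak, where 70.9% of all genes with a pan-NB only peak had none. The 4 were l(2)gl, with 2 peaks that scored 6.25 and 5.48, and dlg1 (4.53), scrib (2.5) and par-6 (2.08), with 1 each. At insc, Galphai, cno and pros both kinds of peak were found, and numb, brat, mira and baz had shared peaks alone.

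The Notch and E(spl) list had 9 of 38 peaks pan-NB only (23.7%, against 43.6% of all peaks at genes). N, the receptor gene, accounted for 4 of them with scores up to 4.44, and neur, a ubiquitin ligase gene needed for signalling by Delta, for 2 with scores up to 6.55. Brd, a Bearded family gene, had a single pan-NB only peak with a score of 5.92 and no medulla NB peak, and E(spl)malpha-BFM had 1. Every E(spl) bHLH gene with a pan-NB peak had shared ones alone. In the Polycomb and Trithorax list 5 of 24 peaks (20.8%) were pan-NB only, in the type II lineage list 11 of 43 (25.6%), and in the axon guidance list 16 of 58 (27.6%). Each of these shares also lay below that 43.6%.

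Larval timing genes had 22 of 64 peaks pan-NB only (34.4%, against 43.6% of all peaks at genes). With sharing set at 50% of the peak, this share was 56.2%, against 54.6% of all, so its side of the overall share depends on that setting. Eip93F, an ecdysone-induced factor of late larval stages, had 1 peak on 3R, from 21948056 to 21949331, which was pan-NB only and scored 7.47. EcR, the ecdysone receptor gene, had 3 pan-NB only and 3 shared peaks. Imp, which encodes an RNA-binding protein of young NBs, had 3 and 4, and Syp, its counterpart in old NBs, had 1 and 5. Of the embryonic temporal genes, Kr and nub had a single peak each, pan-NB only, with scores of 5.11 and 3.5, pdm2 had 2 pan-NB only and 2 shared peaks, and cas had 2 shared peaks alone.

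Cell cycle genes had 44 pan-NB peaks, of which 14 (31.8%, against 43.6% of all) were pan-NB only. Cdk4, the kinase partner of Cyclin D, had 2 pan-NB only peaks with scores of 6.52 and 5.41 beside 1 shared peak. The peak with 5.41 lay 839 bp from Cdk4 and on the ribosomal protein gene RpLP2. Myc, a growth regulator, had 2 with scores of 3.89 and 3.54 and no medulla NB peak. Orc1, Orc2, Myt1 and rux had 1 each, with scores of at most 3.04, and none in the medulla NB list. CycD had 1 pan-NB only peak of 2, with a score of 2.25, and stg and CycE had none. In the cell death list 7 of 13 peaks (53.8%, against 43.6% of all) were pan-NB only, at Diap1, egr, grim, hid, skl and Dronc. Without Dronc it was 5 of 11 (45.5%), near the share of all peaks at genes.

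Genes named for medulla neuron fate had a pan-NB only share near that of all peaks at genes. Of their 63 pan-NB peaks 31 (49.2%, against 43.6% of all) were pan-NB only. They lay at 10 of 13 bound genes, where 51.2% of all genes with a pan-NB peak had one. Only 2 of the 10, vvl and run, had no medulla NB peak, where 70.9% of all genes with a pan-NB only peak had none. svp had 6, dac, kn and run had 4 each, and ct and TfAP-2 had 3 each. Of the genes of optic lobe patterning, so had 4 pan-NB only peaks with scores of up to 3.6, and 15 of 39 peaks (38.5%) in that list were pan-NB only. Both lists hold dac. In the EGFR list 15 of 30 peaks (50%, against the same 43.6%) were pan-NB only, with 5 at pnt, an ETS factor gene, and 4 at aop, which encodes an opposing ETS repressor.

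At genes for ribosomal proteins the regions were mostly single peaks of low score. Of 92 cytoplasmic ribosomal protein genes 44 had a pan-NB peak. A pan-NB only peak lay at 22 of them, near the 51.2% of all genes with a pan-NB peak. None of these 22 had a medulla NB peak within 1 kb, where 70.9% of all genes with a pan-NB only peak had none. The 25 pan-NB only peaks at this list, of 48 (52.1%, against 43.6% of all), had a median score of 2.62. The highest, with a score of 5.41 at RpLP2, is the peak also counted at Cdk4. At mitochondrial ribosomal protein genes 18 of 28 peaks (64.3%) were pan-NB only, at 16 genes, with a median score of 2.69. With the higher-scoring 50% of the pan-NB list that share was 16.7%, of 6 peaks, which is below the 24.4% of all peaks at genes in that setting. Lists of genes used in other tissues or in sensory neurons gave few peaks to compare. The fat body and immune list had no pan-NB peak, photoreceptor genes had 2 pan-NB only peaks of 6, muscle and mesoderm genes 5 of 11, and odorant, gustatory and ionotropic receptor genes 7 of 12.

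The remaining lists add a few loci, and their shares are to be read beside the 43.6% of all peaks at genes. Among genes for TALE proteins and Hox cofactors, 23 of 30 peaks (76.7%) were pan-NB only, and without hth 5 of 7 were. These 5 lay at tsh, mirr and ara, and neither mirr nor ara, both Iroquois homeobox genes, had a medulla NB peak. The Iroquois gene caup differed from them, with 1 shared peak, 1 medulla NB peak and no pan-NB only peak. Nuclear receptor genes had 21 of 44 peaks pan-NB only (47.7%), among them 2 at knrl with scores of up to 4.86. Gap and pair-rule genes had 8 of 20 (40%), and 4 of the 8 were those of run. In the synaptic list, 7 of 16 peaks (43.8%) were pan-NB only. The one at para, the voltage-gated sodium channel gene, scored 6.08 without a medulla NB peak at that gene. RNA-binding protein and cell polarity genes each had 11 of 35 (31.4%), and glial genes had 9 of 26 (34.6%). Embryonic temporal genes had 7 of 17 (41.2%). Proneural genes and their partners had 3 of 14 (21.4%), at ase, ato and HLH3B, and the dpr and DIP genes had 2 of 3.

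Of 30 lists with at least 10 pan-NB peaks, 15 had a higher pan-NB only share than the 43.6% of all peaks at genes and 15 had a lower one. The Hox and GATA lists lay highest and the mid tTF list lowest. The lists overlap in genes, peaks at 1 gene are not independent, and no test was made of any list.

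**Figure D5:**
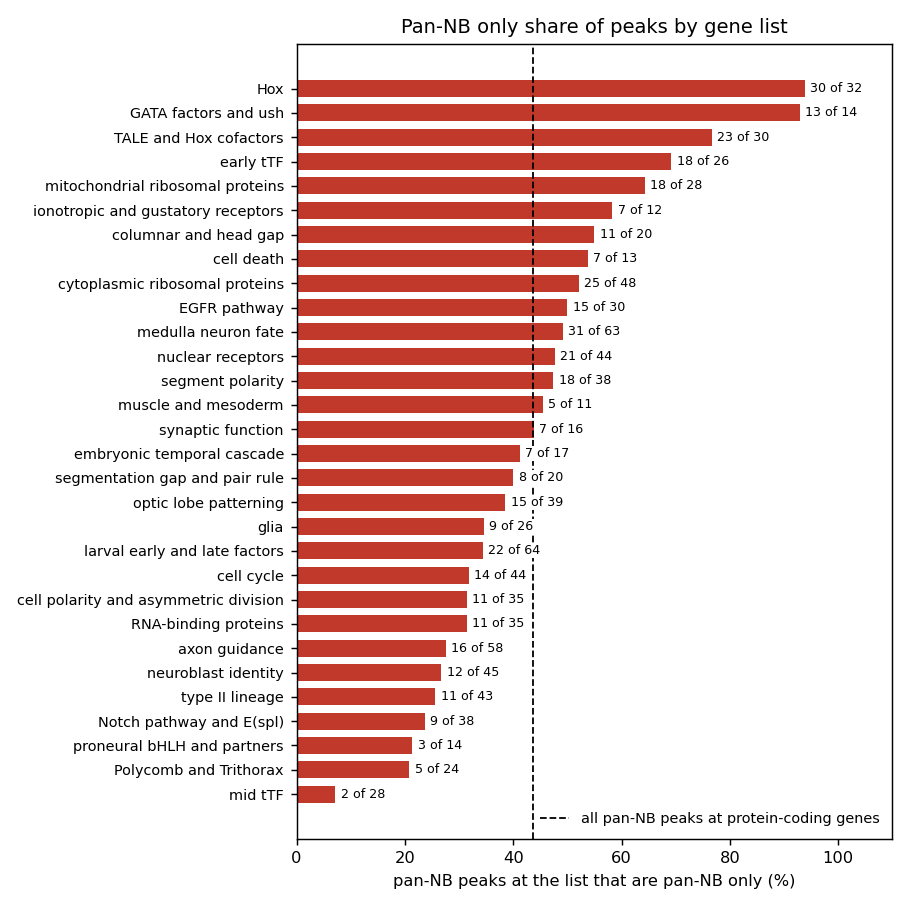
Share of pan-NB peaks that were pan-NB only (horizontal axis, %) for 30 gene lists with at least 10 pan-NB peaks, with the number of pan-NB only peaks and of all pan-NB peaks beside each bar. The dashed line is the 43.6% of all pan-NB peaks at protein-coding genes. Hox genes stand at 93.8% and mid tTF genes at 7.14%.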

How the data were processed

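The authors ran damidseq_pipeline on paired-end reads without changed options, averaged the replicate profiles, and found peaks with find_peaks (min-quant 0.8, FDR below 0.01). The methods describe peak calling for each replicate, whereas the deposited lists are labelled as averages. No source used here gives tool versions or the build, and assignment to genes assumes Release 6. Per deposited list, each peak has a position, a score made by the authors and an FDR. The pan-NB list held 4289 peaks and the medulla NB list 3474.

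Peaks were assigned to 13922 protein-coding genes of the RefSeq table of Release 6. A peak and a gene were joined when their nearest positions differed by at most 1000 bp, and 2 peaks overlapped when they shared 1 bp or more. Covered length counts those bases of the peaks that lie at the gene or less than 1 kb beyond it. Assignment was checked on simulated peaks. Python 3.11.15, numpy 2.4.6, pandas 2.3.3, scipy 1.17.1 and matplotlib 3.10.9 were used.

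The regions and the 34 gene lists were chosen with earlier results of these data known. Genes were named by score, by number of pan-NB only peaks, as tTF or Hox genes, as the up to 4 highest-scoring genes per other list, and as those at the edges of the rule. Genes outside these were named after their values were seen. The table gives no strand, exons or sequence, so the planned shares at promoters and of Hes-type motifs were not run. The alternatives were other distances, overlaps, score and FDR limits, joined peaks and all gene types.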

Additional observations from a re-analysis of the deposited data

Results flagged for a closer look

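The pan-NB list also held 7 peaks on the Y chromosome, which the choice of regions leaves out, and the medulla NB list held 0 there. Their scores ran from 1.98 to 4.09. The sex of the larvae in the pools was not used here, and the part it plays was not tested.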

How the results depend on the processing

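With the higher-scoring 50% of the pan-NB list, 379 pan-NB only peaks remained at genes (24.4% of peaks, median score 4.94, median width 1010 bp), at 399 genes of which 50.1% had no medulla NB peak, and 92.6% of the peaks overlapped a gene. Among the 1000 highest-ranked peaks, a limit chosen after seeing the data, there were 108 (16.1%). With sharing set at 50% of the peak, 54.6% were pan-NB only (median score 3.12, median width 1407 bp) and 59.9% of genes had no medulla NB peak. With medulla NB peaks extended by 1 kb these shares were 39.0% and 75.6%, and with an FDR below 0.001 in both lists 48.0% and 75.9%, with a median score of 3.61. A distance of 5 kb gave 3374 genes, 53.7% of them without a medulla NB peak, and 83.4% of peaks on a gene. Peaks on the gene itself gave 74.3% and, by construction, 100%, and genes of any type gave 74.1%. The other 42 values for all regions moved by no more than 1.5 times (counts) or stayed in the exact 95% interval of the main value. The Hox share stayed between 81.8% and 95.2% in the alternatives it was run for. The promoter and motif results were not run. Leaving out a replicate was not possible because only averaged lists were used. No paired analysis was possible because the lists hold no values of single replicates. Unknown depth, an unstated score scale and a common FDR limit for profiles of unlike quality restrict what an absent peak can show.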
